A study of Mus musculus with 6 samples.

Results

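The genes described here are 34 genes of glycolysis and of the response to the hypoxia-inducible factor (HIF), followed in leukocytes sorted from mouse brain before and after stroke surgery. They were chosen by gene symbol, and all 34 were found among the 31053 genes of the count tables. By role they comprise the oxygen-regulated factor subunit Hif1a, 2 glucose transporters, 2 lactate transporters, 16 enzymes of the path from glucose to lactate, 2 regulators of phosphofructokinase, the pyruvate gatekeeper Pdk1, 3 genes listed under HIF feedback (Egln1, Egln3 and Ankrd37) and 7 further HIF targets. For the symbol Aldoa the feature ENSMUSG00000030695 was used, since a further feature of that name held 1 UMI.

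Single-cell RNA-seq with 3′ tags had been run on living CD45-positive cells sorted from perfused brains of C57BL/6 mice, with 3 brains pooled in each of 6 libraries. All mice carried Cd300a alleles flanked by loxP sites, and in 3 of the libraries they also carried Lyz2-cre, a Cre recombinase driven by the lysozyme promoter that acts mainly in neutrophils, monocytes and macrophages. Each genotype was collected naive, or 1 h or 3 h after reperfusion that followed a 60 min occlusion of the right middle cerebral artery with an intraluminal filament. The groups are therefore Cd300a-fl/fl and Cd300a-fl/fl Lyz2-cre at each of the 3 times, with 1 library in each, and no sham-operated group was analysed here. Below, paired values give the Cd300a-fl/fl library first and the Lyz2-cre library second.

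Cells take up glucose through transporters of the Slc2a family and break it down to pyruvate, which is turned into lactate when oxygen is short and leaves the cell through Slc16a carriers. HIF-1 is a transcription factor whose alpha subunit is hydroxylated by the prolyl hydroxylases of the Egln family and then destroyed. At low oxygen the subunit lasts, and it raises transcription of glucose transporters, most glycolytic enzymes, Pdk1, and also Egln3, which closes a feedback loop. In myeloid cells the same factor is also induced through inflammatory signalling, and neutrophils are known to live largely on glycolysis.

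HIF binds a short core, ACGTG or GCGTG, and the promoters of the members that rose most in microglia are shown so that these cores can be seen. Windows are the 250 bases before a RefSeq gene start (GRCm38.p6). Each line gives, 5′ to 3′ on the gene's strand, the part of a window that lies before the gene's first exon in the GENCODE M21 annotation, and capitals mark every ACGTG or GCGTG on either strand. The rule took up to 3 transporter or enzyme genes and up to 3 feedback or target genes by fold change at 3 h among those that the promoter table holds. Slc2a3, Bnip3l and Ndrg1 had no entry there.
Slc2a1: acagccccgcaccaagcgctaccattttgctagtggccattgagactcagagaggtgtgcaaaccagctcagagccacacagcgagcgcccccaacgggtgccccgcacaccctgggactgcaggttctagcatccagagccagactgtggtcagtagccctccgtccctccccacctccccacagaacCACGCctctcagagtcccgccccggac
Slc16a1: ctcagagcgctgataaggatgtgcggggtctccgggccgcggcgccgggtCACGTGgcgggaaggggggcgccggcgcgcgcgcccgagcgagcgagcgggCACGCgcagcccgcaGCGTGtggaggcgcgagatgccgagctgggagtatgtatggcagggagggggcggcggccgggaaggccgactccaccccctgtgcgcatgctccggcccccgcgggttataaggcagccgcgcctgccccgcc
Adm: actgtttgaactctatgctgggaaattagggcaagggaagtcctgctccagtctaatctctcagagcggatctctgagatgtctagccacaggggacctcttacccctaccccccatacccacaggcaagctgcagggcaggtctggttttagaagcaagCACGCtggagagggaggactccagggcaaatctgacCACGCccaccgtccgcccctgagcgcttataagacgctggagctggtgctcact
Ddit4: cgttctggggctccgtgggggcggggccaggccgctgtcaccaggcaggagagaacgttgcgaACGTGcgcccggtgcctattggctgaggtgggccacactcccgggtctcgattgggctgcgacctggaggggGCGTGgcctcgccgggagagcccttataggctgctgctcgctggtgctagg
Egln3: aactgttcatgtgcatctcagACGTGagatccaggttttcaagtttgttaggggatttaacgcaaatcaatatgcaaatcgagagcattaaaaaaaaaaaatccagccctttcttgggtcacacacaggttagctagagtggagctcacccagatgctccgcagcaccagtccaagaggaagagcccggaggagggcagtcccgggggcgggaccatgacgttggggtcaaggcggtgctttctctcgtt

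The Slc2a1 stretch lies at chr4:119108495-119108710 on the plus strand and holds a core 61 bases before the RefSeq start; a further core, at 36 bases, reaches into the 34 bases of the window that GENCODE places in the 5′ UTR of Slc2a1, which are not printed. The Ddit4 stretch (chr10:59951835-59952020, minus strand) has cores at 187 and 115 bases, and the last 64 bases of its window are likewise 5′ UTR. Pfkfb3, also chosen by the rule, has 1 core in the window of its first listed promoter, 60 bases before the RefSeq start. This core lies within 148 bases of annotated 5′ UTR, so that window is not shown. The window of its other listed promoter holds 3 cores, at 122, 53 and 52 bases before its start. The Egln3 window (chr12:54203875-54204124, minus strand) holds 1 core, 229 bases before the start, and the Adm window (chr7:110627407-110627656, plus strand) holds cores at 90 and 54 bases. The Slc16a1 window (chr3:104638414-104638663, plus strand) holds 4, at 200, 199, 149 and 134 bases; the first 2 overlap, because CACGTG contains ACGTG on both strands. These last 3 windows lie upstream of their genes, and that of Adm lies within an intron of the antisense gene Gm28863. Over the first listed promoter of the 31 members in the table, 25 (80.6%) held at least 1 core, against 38.6% of all 32851 RefSeq promoters cut to the same window. The shares were 54.8% against 16.6% for ACGTG and 51.6% against 28.2% for GCGTG. Median GC content was 62.8% in the members' windows and 52.4% in all, and its part in these shares was not tested. A match is a run of letters, not a measured binding site.

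The libraries held 7156 to 10642 barcodes and 35479437 to 48478866 UMIs each, and 47103 of 51005 barcodes were kept as cells, with medians of 3903.5 to 5225 UMIs. Any pair of libraries shared 12 to 30 barcodes. Clusters were named from marker lists, and levels are in CPM, the UMI count scaled to the class's total in that library, so they are relative to the rest of its RNA. Microglia-like cells numbered 4742 to 7306 per library, monocyte-like 110 to 817, neutrophil-like 150 to 1056 and lymphocyte-like 330 to 665. In microglia-like cells all 11 microglial markers were detected in every library, and their summed level was 33410 to 41400 CPM in the 4 naive and 1 h libraries and 21810 and 25310 CPM at 3 h. Cd300a in neutrophil-like cells was at 127.5 to 255.9 CPM in the 3 Cd300a-fl/fl libraries and at 9.854 to 16.23 CPM in the 3 Lyz2-cre libraries. Its remaining 3′ tags do not show which exons the floxed allele removes. With 1 library per group, time was tested over both genotypes together with genotype as a covariate. The p-values therefore measure the spread among these 6 pools, with 2 residual degrees of freedom plus what edgeR borrows from other genes. Fold changes are log2 with their standard error (SE), p-values come from edgeR's quasi-likelihood test and are adjusted by Benjamini-Hochberg over all genes tested in the class, and a gene was called at an adjusted p under 0.05. Where a call is said to be lost without a library, that library alone was left out of the fit.

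In microglia-like cells glucose carriers and much of the glycolytic chain rose after stroke surgery. At 1 h 18 of the 34 members had risen from naive and none had fallen, where 13.9% of all 12801 tested genes rose and 12.5% fell. At 3 h 20 had risen and 2 had fallen, against 24.4% and 23.2% of all genes. Between 1 h and 3 h 8 rose and 8 fell, against 25.4% and 22.1%. The members' median log2 fold change was 0.60 at 1 h and 0.62 at 3 h against naive, beside medians of -0.01 and -0.02 over all genes. The steps differed in time course. Both glucose transporters, the lactate carrier Slc16a1, Pfkfb3 and Hif1a were highest at 3 h, while several enzymes were highest at 1 h and lower again at 3 h.

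**Figure D1:**
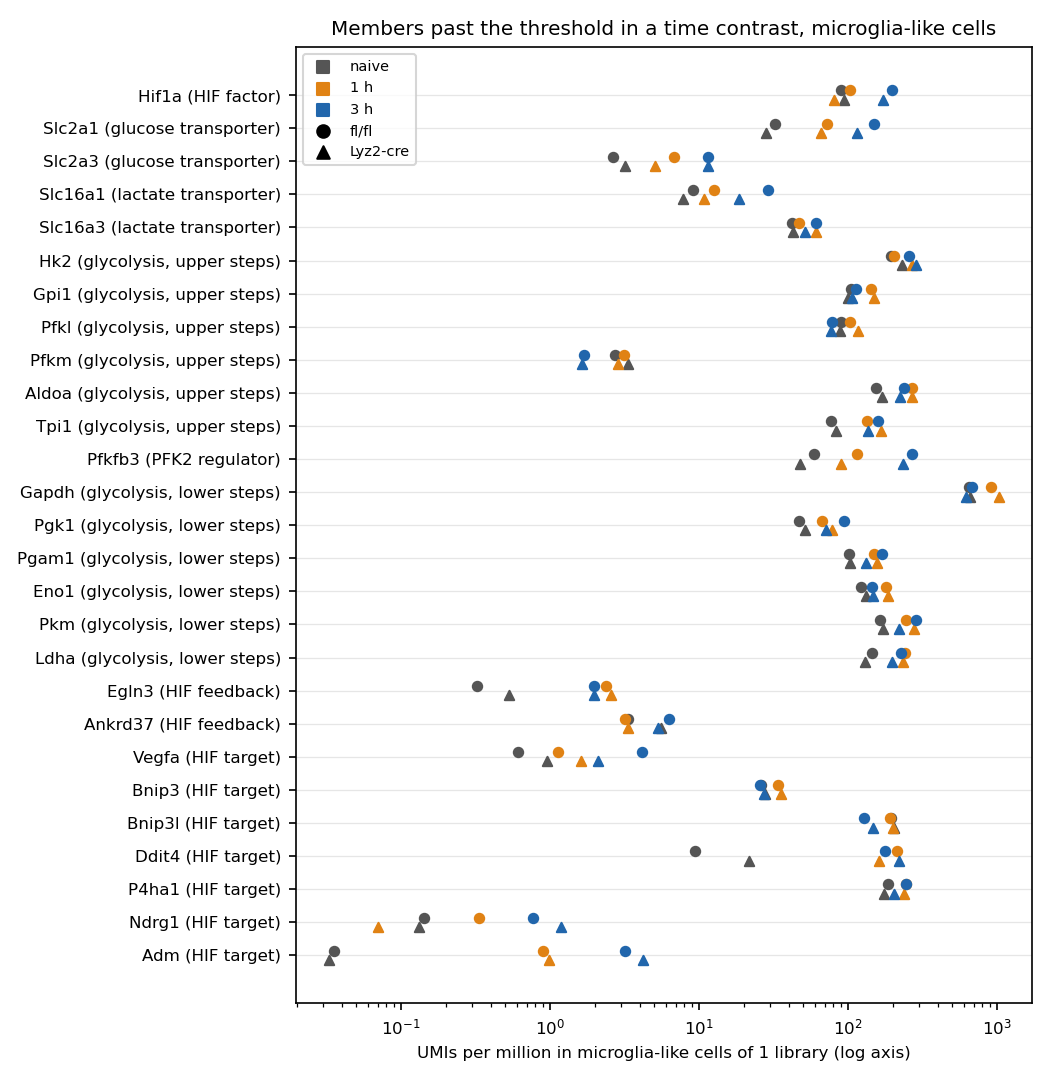
Levels in microglia-like cells of the members called in any time comparison, on a log axis of CPM. Each point is 1 library, colours give the time and symbols the genotype, and no error bars are drawn. Slc2a1 climbed from 28.3 and 32.4 CPM naive to 115 and 151 CPM at 3 h, whereas Gapdh peaked at 1 h (916 and 1027 CPM).

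Hif1a, the oxygen-regulated subunit, stood at 90.6 and 94.8 CPM in the naive libraries, then 103 and 80.9 at 1 h, then 197 and 172 at 3 h. The naive and 1 h libraries overlapped, and both 3 h libraries lay above all the others. The change was 0.09 ± 0.10 (adjusted p = 0.56) at 1 h and 1.07 ± 0.10 (adjusted p = 6.1e-05) at 3 h against naive, and its rise from 1 h to 3 h was 0.98 ± 0.10 (adjusted p = 0.00012).

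Both glucose transporters rose at each step. Slc2a1, the basal glucose carrier of most cells, was at 32.4 and 28.3 CPM in the naive libraries, then 72.7 and 66.4 at 1 h, then 151 and 115 at 3 h. The 3 times did not overlap, and at 3 h the Lyz2-cre library was the lower of the pair. Against naive Slc2a1 rose by 1.31 ± 0.10 (adjusted p = 6.9e-05) at 1 h and by 2.21 ± 0.10 (adjusted p = 1.3e-06) at 3 h. Slc2a3, a high-affinity carrier, had 2.65 and 3.20 CPM in the naive libraries, then 6.86 and 5.07 at 1 h, then 11.5 and 11.6 at 3 h. These times did not overlap either, and the change at 3 h was 2.06 ± 0.18 (adjusted p = 4.8e-05). Its call at 1 h (1.12) was lost without the fl/fl naive library.

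The lactate carriers rose less. Slc16a1, which moves lactate and other monocarboxylates in both directions, was at 9.11 and 7.79 CPM in the naive libraries, then 12.6 and 10.8 at 1 h, then 28.9 and 18.6 at 3 h. The 3 times did not overlap, and the pair at 3 h lay far apart, with the fl/fl library higher. Slc16a1 rose by 0.57 ± 0.15 (adjusted p = 0.022) at 1 h, a call lost without either naive library or the Lyz2-cre 1 h library, and by 1.55 ± 0.15 (adjusted p = 7.2e-05) at 3 h. Slc16a3, the exporter of highly glycolytic cells, was at 42.2 and 42.7 CPM in the naive libraries, then 47.4 and 60.8 at 1 h, then 61.0 and 51.5 at 3 h. Its 1 h and 3 h values overlapped and both stood above naive; only the 3 h change was called, at 0.49 ± 0.16 (adjusted p = 0.049), and it was lost without either naive library or the fl/fl 3 h library.

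Of the upper enzymes, Hk2, the inducible hexokinase that traps glucose in the cell, was at 195 and 232 CPM in the naive libraries, then 205 and 271 at 1 h, then 256 and 288 at 3 h. Libraries of different times overlapped, and in each pair the Lyz2-cre library was higher. With genotype as a covariate Hk2 rose at 3 h by 0.44 ± 0.09 (adjusted p = 0.0045), and this call was lost without either naive library. Gpi1, the isomerase of the second step, was at 105 and 100.5 CPM in the naive libraries, then 143 and 150 at 1 h, then 113 and 107 at 3 h. Both 1 h libraries lay above all others, and the naive and 3 h libraries lay close together without overlapping. Gpi1 rose at 1 h by 0.62 ± 0.09 (adjusted p = 0.0014) and fell from 1 h to 3 h, with a change of -0.44 ± 0.09 (adjusted p = 0.0027) that was lost without the Lyz2-cre 1 h library. Its value at 3 h against naive was 0.18 ± 0.09 (adjusted p = 0.11).

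Phosphofructokinase commits sugar to glycolysis. Its liver-type subunit Pfkl was at 89.7 and 88.2 CPM in the naive libraries, then 104 and 117 at 1 h, then 78.2 and 77.3 at 3 h. It was highest at 1 h and below every naive value at 3 h. Its 1 h call was lost without either naive or the Lyz2-cre 1 h library. The rise at 1 h was 0.42 ± 0.09 (adjusted p = 0.011) and the change from 1 h to 3 h was -0.53 ± 0.09 (adjusted p = 0.0016); against naive, 3 h gave -0.11 ± 0.09 (adjusted p = 0.34). The muscle-type subunit Pfkm was sparse, at 2.72 and 3.37 CPM in the naive libraries, then 3.15 and 2.85 at 1 h, then 1.69 and 1.64 at 3 h. It was lowest at 3 h, with a change against naive of -0.80 ± 0.23 (adjusted p = 0.017) that was lost without the Lyz2-cre naive or the Lyz2-cre 3 h library.

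Aldoa, which splits the 6-carbon sugar, was at 154 and 168 CPM in the naive libraries, then 271 and 271 at 1 h, then 238 and 224 at 3 h. All 4 libraries after surgery lay above both naive ones, and the 1 h pair was higher than the 3 h pair. It rose by 0.86 ± 0.09 (adjusted p = 0.00029) at 1 h and by 0.60 ± 0.09 (adjusted p = 0.00065) at 3 h. Tpi1, which interconverts the 3-carbon products, was at 76.5 and 83.5 CPM in the naive libraries, then 134 and 167 at 1 h, then 159.5 and 136 at 3 h. Every library after surgery again lay above both naive ones. Tpi1 rose by 1.02 ± 0.15 (adjusted p = 0.0057) at 1 h and by 0.97 ± 0.15 (adjusted p = 0.0027) at 3 h. Without either naive library the 1 h call was lost, and without the fl/fl naive library the 3 h call.

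Pfkfb3 makes fructose 2,6-bisphosphate, the main allosteric activator of phosphofructokinase, and it rose throughout. Its levels were 59.3 and 47.8 CPM in the naive libraries, then 115 and 89.9 at 1 h, then 269 and 234 at 3 h. The 3 times were fully separate, with the fl/fl library the higher of each pair. Pfkfb3 rose by 1.04 ± 0.08 (adjusted p = 4.8e-05) at 1 h and by 2.32 ± 0.08 (adjusted p = 1.7e-07) at 3 h, and the step from 1 h to 3 h was 1.28 ± 0.08 (adjusted p = 1.2e-05).

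Of the 6 lower enzymes 5 rose at 1 h and 5 at 3 h, each by less than 1 on the log2 scale. Gapdh, which reduces NAD in the first energy-yielding step, was at 654 and 661 CPM in the naive libraries, then 916 and 1027 at 1 h, then 682 and 624 at 3 h. The 1 h pair lay above all others, and the naive and 3 h pairs overlapped. It rose by 0.67 ± 0.11 (adjusted p = 0.0027) at 1 h, a call lost without either naive library, and the step to 3 h was -0.60 ± 0.11 (adjusted p = 0.0017); against naive, 3 h gave 0.07 ± 0.11 (adjusted p = 0.59). Eno1, the enolase, was at 122 and 132 CPM in the naive libraries, then 179 and 187 at 1 h, then 145 and 149 at 3 h. All libraries after surgery lay above naive, with the 1 h pair highest. Its change was 0.64 ± 0.08 (adjusted p = 0.00071) at 1 h and 0.30 ± 0.08 (adjusted p = 0.012) at 3 h, the latter lost without either naive or the fl/fl 3 h library.

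Pgk1, which makes the first ATP of the pathway, was at 47.4 and 51.9 CPM in the naive libraries, then 67.4 and 78.9 at 1 h, then 94.8 and 71.0 at 3 h. Both naive libraries were lowest. The 3 h change was 0.82 ± 0.19 (adjusted p = 0.02) and was lost without either naive library, and 1 h gave 0.67 ± 0.19 (adjusted p = 0.059). Pgam1, the mutase of the next step, was at 102 and 103 CPM in the naive libraries, then 150.1 and 156 at 1 h, then 168 and 133 at 3 h. The naive libraries were the lowest here too, and the changes were 0.69 ± 0.12 (adjusted p = 0.006) at 1 h and 0.64 ± 0.12 (adjusted p = 0.0035) at 3 h. Pkm, which releases pyruvate, was at 165 and 172 CPM in the naive libraries, then 247 and 278 at 1 h, then 285 and 222 at 3 h. It rose by 0.75 ± 0.15 (adjusted p = 0.015) and 0.67 ± 0.15 (adjusted p = 0.012) at 1 h and 3 h. For Pgam1 and Pkm the 1 h call was lost without either naive or the Lyz2-cre 1 h library; at 3 h Pgam1 lost its call without the fl/fl naive library and Pkm without either naive library.

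Ldha, which turns pyruvate into lactate and regenerates NAD, was at 144 and 131 CPM in the naive libraries, then 242 and 234 at 1 h, then 227 and 197 at 3 h. The 4 libraries after surgery lay above both naive ones, and the 1 h pair was highest. Ldha rose by 0.90 ± 0.09 (adjusted p = 0.0002) at 1 h and by 0.70 ± 0.09 (adjusted p = 0.00026) at 3 h; leaving out any of the 6 libraries ended neither call. The 16 enzymes from hexokinase to lactate dehydrogenase summed to 1917 and 1991 CPM naive, 2723 and 3002 at 1 h, with 2515 and 2282 at 3 h. Near copies of these genes took few reads: over all barcodes the Gapdh-like Gm3839 held 653 UMIs beside 237203 for Gapdh, and Eno1b 193 beside 51241 for Eno1. How the authors' counting split reads among such copies is not given in the sources used here.

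Among the genes listed under HIF feedback, Egln3, the prolyl hydroxylase most strongly induced by HIF, rose from a low level. It was at 0.323 and 0.528 CPM in the naive libraries, then 2.38 and 2.57 at 1 h, then 1.98 and 1.98 at 3 h. All 4 libraries after surgery lay above both naive ones, with changes of 2.63 ± 0.31 (adjusted p = 0.00056) at 1 h and 2.28 ± 0.32 (adjusted p = 0.00052) at 3 h. Egln1, the main hydroxylase at normal oxygen, was at 55.9 and 54.3 CPM in the naive libraries, then 52.7 and 56.7 at 1 h, then 51.1 and 50.6 at 3 h; it was called in no time comparison, and its change at 3 h was -0.03 ± 0.09. Ankrd37, a small ankyrin-repeat HIF target, was at 3.37 and 5.61 CPM in the naive libraries, then 3.18 and 3.34 at 1 h, then 6.27 and 5.33 at 3 h. The lower naive library lay close to the 1 h pair and the other with the 3 h pair. Its step from 1 h to 3 h was 0.80 ± 0.24 (adjusted p = 0.024), which was lost without either 1 h library or the fl/fl 3 h library.

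Of the 7 other targets 5 had risen and 1 had fallen at 3 h. Ddit4, an inhibitor of mTORC1 that glucocorticoids also induce, was at 9.46 and 21.8 CPM in the naive libraries, then 213 and 161 at 1 h, then 177 and 222 at 3 h. The naive libraries differed from each other by a larger ratio than either later pair, and all later libraries lay far above them. The changes were 3.74 ± 0.51 (adjusted p = 0.034) at 1 h and 3.78 ± 0.50 (adjusted p = 0.019) at 3 h, and both calls were lost without either 3 h library. Adm encodes the vasodilator peptide adrenomedullin and had 1 UMI in each naive library. Its levels were 0.0358 and 0.0330 CPM in the naive libraries, then 0.903 and 0.985 at 1 h, then 3.18 and 4.20 at 3 h. The 3 times did not overlap. Summed over both genotypes the ratio to naive was 27.4 (95% counting interval 7.25 to 232) at 1 h and 109.9 (30.01 to 914) at 3 h, and both were called (adjusted p = 0.00047 and 8.8e-06).

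Vegfa, the vascular growth factor, was at 0.609 and 0.958 CPM in the naive libraries, then 1.14 and 1.62 at 1 h, then 4.15 and 2.12 at 3 h. Both 3 h libraries were highest, and the change against naive was 2.03 ± 0.44 (adjusted p = 0.008), lost without the fl/fl naive library. Ndrg1, a stress-responsive gene, had 8 UMIs in the naive libraries together and 51 at 3 h, a ratio of 7.42 (95% counting interval 3.49 to 18.1). Its levels were 0.143 and 0.132 CPM in the naive libraries, then 0.335 and 0.0704 at 1 h, then 0.771 and 1.20 at 3 h, and the fitted change of 2.91 ± 0.63 (adjusted p = 0.0047) was lost without either naive library. P4ha1, a collagen prolyl hydroxylase subunit, was at 186 and 175 CPM in the naive libraries, then 247 and 236 at 1 h, then 244 and 203 at 3 h. It rose by 0.53 ± 0.09 (adjusted p = 0.004) at 1 h and 0.39 ± 0.09 (adjusted p = 0.0071) at 3 h; the calls were lost without either naive library, without Lyz2-cre 1 h in the first case and without fl/fl 3 h in the second.

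Bnip3 and Bnip3l mark mitochondria for removal, and they did not follow the transporters. Bnip3 was at 26.1 and 27.8 CPM in the naive libraries, then 34.2 and 35.6 at 1 h, then 25.8 and 27.6 at 3 h. The 1 h pair was highest and the naive and 3 h pairs overlapped: the 1 h change was 0.48 ± 0.08 (adjusted p = 0.0045), lost without either naive or the Lyz2-cre 1 h library, and 3 h against naive was 0.07 ± 0.09 (adjusted p = 0.56). Bnip3l was at 194 and 204 CPM in the naive libraries, then 191 and 201 at 1 h, then 128 and 148 at 3 h. Both 3 h libraries lay below all others, and Bnip3l fell by 0.45 on the log2 scale against naive (adjusted p = 0.0013).

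Members called in no time comparison in microglia-like cells were Hk1, Hk3, Pfkp, Aldoc, Pfkfb4, Pdk1 and Egln1. Pdk1, which inhibits pyruvate dehydrogenase, was at 67.8 and 68.2 CPM in the naive libraries. It was at 50.1 and 65.0 CPM at 1 h and at 48.0 and 68.1 CPM at 3 h, with -0.17 ± 0.12 at 3 h (adjusted p = 0.26). Pfkfb4 was at 39.9 and 38.1 CPM in the naive libraries, then 37.7 and 39.5 at 1 h, then 29.7 and 38.0 at 3 h, and neighbouring times overlapped. The ubiquitous hexokinase Hk1 had changes of -0.10 ± 0.15 at 1 h and -0.11 ± 0.15 at 3 h, and Hk3, a myeloid hexokinase, 0.15 ± 0.11 and 0.03 ± 0.11. Pfkp had 0.11 ± 0.46 and 1.07 ± 0.43, and the brain aldolase Aldoc 0.55 ± 0.53 and 1.25 ± 0.50.

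Set side by side, the 23 transport and enzyme genes and the 10 feedback and target genes showed similar counts in microglia-like cells. At 1 h 13 of 23 and 5 of 10 had risen, with median changes of 0.62 and 0.59. At 3 h 13 of 23 had risen and 1 had fallen (median 0.60), and 6 of 10 had risen and 1 had fallen (median 1.24). The difference between these groups of genes was not tested. Of the feedback genes alone 1 of 3 had risen at 3 h (median 0.46), and of the targets 5 of 7 (median 2.03). Leaving out either naive library ended many of the members' calls in microglia-like cells, at 1 h and at 3 h. Without the Lyz2-cre naive library some members not called with all libraries were called at 3 h instead. Leaving out the Lyz2-cre 1 h library ended some calls at 1 h against naive and none at 3 h against naive.

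Genes around the pathway were counted from lists that overlap the members nowhere, and each count is to be read against the shares over all genes (24.4% higher and 23.2% lower at 3 h, 13.9% and 12.5% at 1 h), which several of them lie near. Of 9 tested HIF pathway proteins 3 rose and 1 fell at 3 h against naive (median 0.15). Hif3a, whose products can dampen HIF activity, was at 0.215 and 0.297 CPM in the naive libraries, then 2.44 and 1.37 at 1 h, then 2.41 and 7.14 at 3 h, a rise of 4.24 ± 0.72 (adjusted p = 0.0075). Every library after surgery lay above both naive ones, and the 1 h and 3 h pairs overlapped. The partner subunit Arnt rose by 0.34 ± 0.08 and the ligase scaffold Cul2 by 0.31 ± 0.09, while Vhl, which recognises hydroxylated HIF, changed by -0.24 ± 0.08. Of 20 further HIF-responsive genes 11 rose and 2 fell (median 0.36). The clock-linked repressor Bhlhe40 led them, at 0.251 and 0.264 CPM in the naive libraries, then 1.64 and 0.809 at 1 h, then 5.64 and 2.36 at 3 h, a change of 3.94 ± 0.36 (adjusted p = 5.9e-05). Others of that list that rose included P4ha2 with 1.85 ± 0.41 and the transferrin receptor Tfrc with 1.69 ± 0.26.

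Of 12 further genes, which were glycolytic enzymes, isoforms and transporters of the Slc2a family, 2 rose and 3 fell (median -0.33). Eno2, the enolase named for neurons, was at 0.358 and 0.231 CPM in the naive libraries, then 0.703 and 0.422 at 1 h, then 9.35 and 4.24 at 3 h, a rise of 4.55 ± 0.29 (adjusted p = 7.1e-06). The Slc2a family transporters Slc2a9 and Slc2a8 changed by -1.12 ± 0.17 and -0.60 ± 0.08, and Bpgm by -0.67 ± 0.15. Of 25 genes of pyruvate entry and the citric acid cycle 10 had risen and none had fallen at 1 h (median 0.18), and 2 had risen and 5 fallen at 3 h (median -0.07). Pdk2 fell by 1.12 on the log2 scale, Sdhb by 0.55 and Dlst by 0.36, and Pdp1 rose by 0.57. The pentose phosphate pathway had 3 of 8 genes higher and none lower at 3 h (median 0.23), which were Taldo1 (0.48 ± 0.09), G6pdx (0.31 ± 0.10) and Pgd (0.30 ± 0.09). Among glycogen genes Ppp1r3b rose (1.24 ± 0.11) and Ugp2 (-0.23 ± 0.08) fell.

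Microglia-like cells at 3 h fell into 7 clusters of at least 50 cells in each library, and the members were unevenly spread over them. The clusters were built from these cells' own genes, 10 members included, so the values are a description without a test. Slc2a1 was at 271.8 and 229 CPM in the cluster led by Gdf15 and at 271 and 240.2 CPM in that led by Rcan1 and Ccl12, but at 24 to 59.0 CPM in the other 5. Pfkfb3 was also highest in the Gdf15 cluster, at 499 and 580.3 CPM, as was Hif1a at 330.1 and 403 CPM. Ddit4 was lowest in the Gdf15 cluster, at 33.4 and 33.3 CPM, and highest in the cluster led by Slc1a3, at 560.4 and 547 CPM. In the cluster led by Rcan1 and Ccl12, where Slc2a1 was also high, Ddit4 was at 169 and 153 CPM. Bnip3l (72.1 and 78.6 CPM) and Pdk1 (14 and 12 CPM) were lowest in the Gdf15 cluster, and Pdk1 reached 102.9 to 132 CPM in the clusters led by P2ry12 and Csmd3. Adm was highest in the cluster led by the heat-shock gene Hspa1a, at 8.65 and 15.0 CPM. The Gdf15 cluster held 20.8% of microglia-like cells of the fl/fl 3 h sample and 7.09% of its Lyz2-cre counterpart, whereas the cluster led by Rcan1 and Ccl12 held 18.9% and 23.9%. With 1 library per genotype at 3 h this difference has no replicate check. Of these 7 clusters, those led by Gdf15 and Csmd3 had all 11 microglial markers detected, but their highest marker score was for the astrocyte and the neuron list. Without both, the changes at 3 h over the class were 2.06 for Slc2a1, 2.10 for Pfkfb3, 0.87 for Hif1a and 4.06 for Ddit4, all called, while Hk3 turned to -0.25 (adjusted p = 0.027) and Hk1 (-0.40, adjusted p = 0.013) was also called lower.

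**Figure D2:**
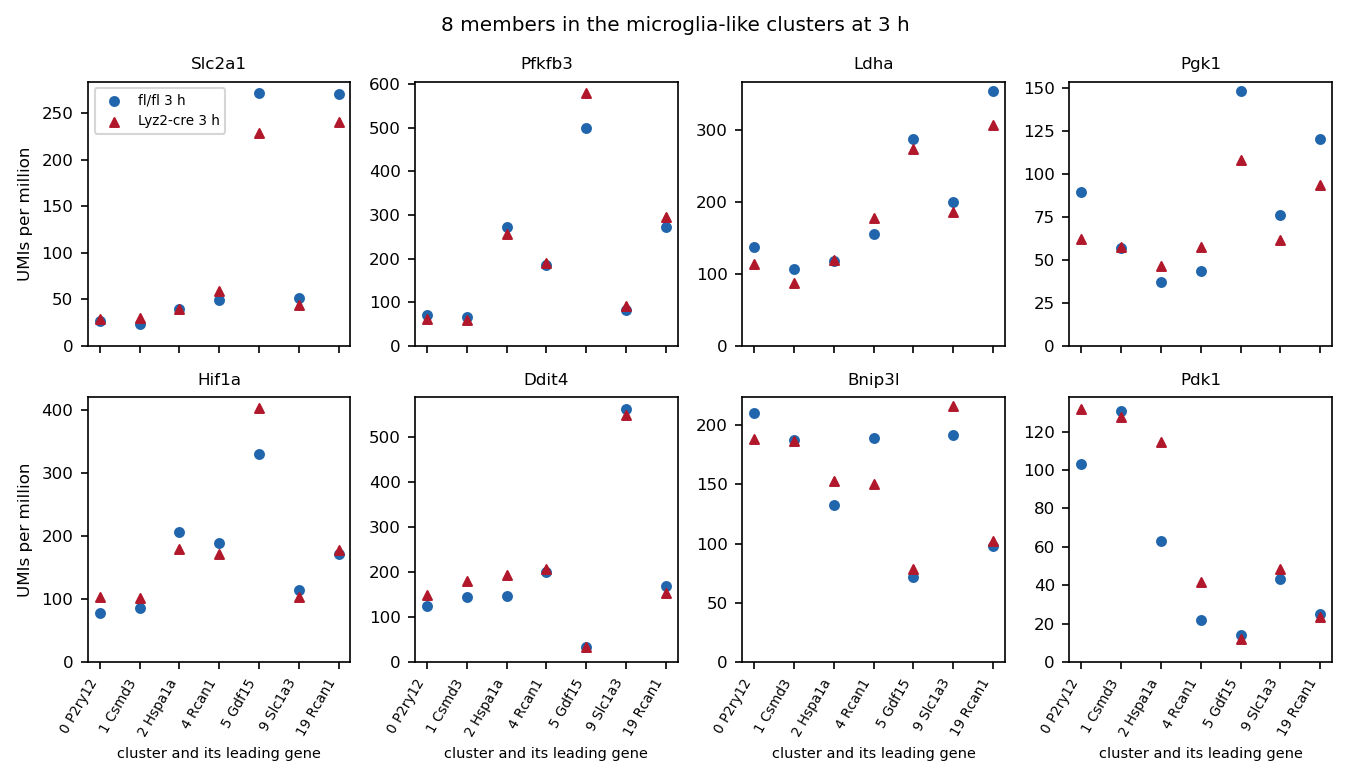
Levels of 8 members (CPM, axes from 0) in each microglia-like cluster of the 3 h libraries, with 1 symbol per library and clusters given by number and leading gene. Slc2a1 and Ddit4 peak in different clusters. In the fl/fl library Slc2a1 peaks at 271.8 CPM where Ddit4 is at 33.4 CPM, and Ddit4 at 560.4 CPM where Slc2a1 is at 51.8 CPM. In cluster 19 Slc2a1 is also high (271 and 240.2 CPM), with Ddit4 at 169 and 153 CPM.

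The genotype comparison asks whether losing Cd300a, an inhibitory receptor for phospholipids on dying cells, goes with a different level of these genes. The level of Cd300a itself differed between genotypes to unequal degrees in the 4 classes. It was lower in Lyz2-cre at every time in microglia-like cells (171.9 and 137.4 CPM naive, 212.4 and 172.1 at 1 h, 206.2 and 162.9 at 3 h) and in monocyte-like cells (466.6 and 227.5 naive, 440.6 and 189.4 at 1 h, 181.7 and 89.16 at 3 h), by smaller ratios than in neutrophil-like cells. In lymphocyte-like cells it was low, at 4.038 to 10.41 CPM in fl/fl and 7.511 to 9.996 CPM in Lyz2-cre libraries, which overlapped. Over the 3 times together no member was called in microglia-like, monocyte-like or neutrophil-like cells, where 0.445%, 0.0559% and 0.0259% of all tested genes were called. At an unadjusted edgeR p under 0.05 there were 8 of 34, 3 of 29 and 3 of 30 tested members. At the same threshold there were 1366 of 12801, 406 of 8951 and 417 of 7709 genes. DESeq2 called 1, 0 and 0 members after adjustment. In lymphocyte-like cells 2 members were lower in Lyz2-cre (2.41% of all genes were called): Hif1a, by -0.43 ± 0.11 (adjusted p = 0.045), and Ndrg1, by -1.77 ± 0.43 (adjusted p = 0.036). DESeq2 called neither; Hif1a lost its call when any 1 library other than fl/fl 1 h was left out, and Ndrg1 when any of the 6 was. At 3 h Slc2a1, Slc16a1 and Pfkfb3 in microglia-like cells were each lower in the Lyz2-cre library (151 and 115, 28.9 and 18.6, and 269 and 234 CPM), and Adm was higher (3.18 and 4.20 CPM). A genotype effect at 1 time has no replicate and was not tested.

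In neutrophil-like cells Slc2a1, Egln3, Pfkfb3 and Hif1a each rose by more than 2 on the log2 scale at 3 h, and none of the 30 members tested fell. At 1 h 4 of the 30 members tested had risen and none had fallen, where 0.843% of all 7709 genes rose and 0.013% fell. At 3 h 15 had risen and none had fallen, against 18% and 11.5% of all genes, and from 1 h to 3 h 9 rose and none fell, against 15.5% and 10.6%. The median change at 3 h was 0.85, beside -0.06 over all genes. Slc16a1, Pfkm, Aldoc and Adm were too low to test.

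Slc2a1 was at 28.6 and 9.62 CPM in the naive libraries, then 87.8 and 60.5 at 1 h, then 346 and 373 at 3 h. The 3 times did not overlap. The change was 2.29 ± 0.34 (adjusted p = 0.0097) at 1 h (lost without the Lyz2-cre naive library) and 4.74 ± 0.34 (adjusted p = 1.8e-05) at 3 h. The other glucose carrier, Slc2a3, lay at 312 to 536.5 CPM over the 6 libraries, and its 3 h change of 0.63 was not called. Both carriers together summed to 360.2 and 374.6 CPM naive, and to 882.1 and 708.4 CPM at 3 h. Hif1a, at 66.6 and 51.1 CPM in the naive libraries, then 136 and 109.6 at 1 h, then 288 and 359 at 3 h, was likewise separate at every time. It rose by 1.22 ± 0.24 (adjusted p = 0.043) at 1 h, lost without either naive library, and by 2.77 ± 0.24 (adjusted p = 3e-05) at 3 h. The lactate exporter Slc16a3 was at 198 and 203 CPM in the naive libraries, then 519 and 608 at 1 h, then 681 and 594 at 3 h. All libraries after surgery lay above both naive ones and the 1 h and 3 h pairs overlapped; the change at 3 h was 1.98 ± 0.27 (adjusted p = 0.00039).

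The rate-setting enzyme and its regulators rose. The liver-type phosphofructokinase Pfkl was at 15.9 and 12.6 CPM in the naive libraries, then 37.0 and 44.5 at 1 h, then 73.1 and 58.0 at 3 h. Its times did not overlap, and it rose by 2.53 ± 0.35 (adjusted p = 0.00041) at 3 h. Pfkp was at 22.2 and 22.9 CPM in the naive libraries, then 37.0 and 24.5 at 1 h, then 72.2 and 84.3 at 3 h and rose by 2.06 ± 0.28 (adjusted p = 0.00034), with both 3 h libraries highest. Pfkfb3 was at 27.0 and 17.4 CPM in the naive libraries, then 52.9 and 32.0 at 1 h, then 169.9 and 184 at 3 h, with both 3 h libraries far above the rest and a change of 3.34 ± 0.27 (adjusted p = 2.2e-05). Pfkfb4 was at 102 and 85.4 CPM in the naive libraries, then 96.2 and 75.4 at 1 h, then 138 and 133 at 3 h, a change of 0.84 ± 0.22 (adjusted p = 0.016) that was lost without either naive library. Of the other enzymes only Tpi1 and Eno1 passed the test. Tpi1 was at 42.8 and 58.9 CPM in the naive libraries, then 76.2 and 85.8 at 1 h, then 148 and 77.4 at 3 h and rose by 1.39 ± 0.40, although 1 of its 3 h libraries lay within the 1 h range. Eno1 was at 271 and 332 CPM in the naive libraries, then 390.2 and 367 at 1 h, then 473 and 421 at 3 h and rose by 0.87 ± 0.25. Each call was lost without the fl/fl naive or the fl/fl 3 h library, and that of Eno1 also without the Lyz2-cre naive library. Summed over the 16 enzymes, neutrophil-like cells had 5353 and 5643 CPM naive, 6173 and 7094 at 1 h, with 5991 and 4796 at 3 h, so naive and 3 h overlapped.

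The HIF feedback hydroxylase Egln3 was at 7.93 and 9.02 CPM in the naive libraries, then 15.9 and 6.67 at 1 h, then 84.9 and 113 at 3 h. The naive and 1 h libraries overlapped and both 3 h libraries were far higher, a rise of 3.76 ± 0.37 (adjusted p = 5.5e-05). Ankrd37, at 11.1 and 4.21 CPM in the naive libraries, then 15.9 and 2.89 at 1 h, then 30.2 and 16.1 at 3 h, rose by 1.96 ± 0.42 and lost the call without the fl/fl naive library. Bnip3 was at 22.2 and 22.2 CPM in the naive libraries, then 55.0 and 24 at 1 h, then 102 and 64.6 at 3 h. Both 3 h libraries lay above the rest and the change was 2.07 ± 0.31 (adjusted p = 0.00061). P4ha1, at 22.2 and 7.21 CPM in the naive libraries, then 28.6 and 14 at 1 h, then 41.7 and 23.4 at 3 h, rose by 1.59 ± 0.33, lost without the Lyz2-cre naive library. Ndrg1 was at 36.5 and 31.3 CPM in the naive libraries, then 39.1 and 22.7 at 1 h, then 42.3 and 58.0 at 3 h, a rise of 0.86 ± 0.28 lost without either naive or the Lyz2-cre 3 h library. Ddit4 had 8 UMIs in the naive libraries together, and its levels were 1.59 and 4.21 CPM in the naive libraries, then 30.7 and 28.7 at 1 h, then 34.3 and 19.3 at 3 h. Its ratio to naive was 8.32 (95% counting interval 4.12 to 19.6) at 1 h and 7.92 (3.93 to 18.6) at 3 h, and the 1 h call was lost without the fl/fl naive library.

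The neutrophil-like class changed its makeup at the same time. Its 12 neutrophil markers were detected in every library, but their sum was 315700 and 395400 CPM naive, 254000 and 396900 at 1 h, with 201900 and 178700 at 3 h. Of its 3 h cells 90.6% and 92.0% lay in 1 cluster, led by Retnlg and Ifitm1, which held 0 and 2 cells of the naive libraries. All 11 microglial markers were also detected in the class, summing to 3056 and 966.8 CPM naive, 3387 and 1780 at 1 h, with 369 and 611.7 at 3 h. The part of either shift in the members' changes was not tested. Without the cluster rich in the secondary-granule gene Ltf, the changes at 3 h were 3.93 for Slc2a1, 2.45 for Hif1a, 3.17 for Pfkfb3, 2.69 for Egln3 and 2.04 for Pfkl, all called. Bnip3 (1.01, adjusted p = 0.065), P4ha1, Ankrd37, Pfkfb4 and Ndrg1 were then no longer called, and Ldha was called (1.60). Leaving out single libraries gave 10 to 19 calls at 3 h; the count was 10 without the fl/fl naive library. At 1 h it was 1 without either naive library and 8 without fl/fl 1 h or either 3 h library.

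In monocyte-like cells Slc2a1, Slc16a1, Hif1a, Vegfa and Pfkfb3 rose by 3 h, and the 5 enzymes that rose did so by less than 1 on the log2 scale. At 1 h 4 of the 29 members tested had risen and none had fallen, where 1.02% of all 8951 genes rose and 0.749% fell. At 3 h 11 had risen and 1 had fallen, against 14.2% and 13% of all genes. From 1 h to 3 h 6 rose and 1 fell, against 10.7% and 8.79%. The median change at 3 h was 0.43, beside -0.02 over all genes. Slc2a3, Pfkm, Aldoc, Egln3 and Adm had too few UMIs to be tested.

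Hif1a was at 56.1 and 73.4 CPM in the naive libraries, then 125 and 101 at 1 h, then 309 and 319 at 3 h. Both 3 h libraries were far above the rest, a rise of 2.44 ± 0.17 (adjusted p = 9.3e-06). Slc2a1, at 21.2 and 17.4 CPM in the naive libraries, then 72.1 and 46.5 at 1 h, then 130.5 and 103 at 3 h, did not overlap between times. It rose by 1.64 ± 0.22 (adjusted p = 0.0065) at 1 h and 2.78 ± 0.19 (adjusted p = 9.2e-06) at 3 h. Slc16a1 had 1 UMI in the naive libraries together and 138 at 3 h, with levels of 0 and 0.560 CPM in the naive libraries, then 2.67 and 2.0 at 1 h, then 8.43 and 13.6 at 3 h. Its ratio to naive at 3 h was 29.6 (95% counting interval 5.22 to 1176) and to 1 h 5.10 (2.41 to 12.9), where the call was lost without the Lyz2-cre 1 h or Lyz2-cre 3 h library. Vegfa, at 1.25 and 4.48 CPM in the naive libraries, then 0.890 and 9.99 at 1 h, then 31.4 and 15.8 at 3 h, had 9 naive UMIs and a ratio of 6.42 (3.33 to 14.2) at 3 h; the call was lost without either naive library.

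Pfkfb3 was at 13.7 and 15.7 CPM in the naive libraries, then 21.4 and 21 at 1 h, then 51.7 and 36.4 at 3 h, highest in both 3 h libraries, with a rise of 1.68 ± 0.24 (adjusted p = 0.00068). Pfkfb4 was at 74.8 and 62.8 CPM in the naive libraries, then 35.6 and 54.5 at 1 h, then 31.9 and 32.4 at 3 h and fell by 0.87 on the log2 scale, lost without the fl/fl naive or the Lyz2-cre 3 h library. The platelet-type Pfkp was at 66.1 and 66.1 CPM in the naive libraries, then 84.6 and 69.5 at 1 h, then 91.1 and 109.8 at 3 h and rose by 0.81 ± 0.17, lost without the Lyz2-cre naive or Lyz2-cre 3 h library. Among the lower enzymes Ldha was at 262 and 255 CPM in the naive libraries, then 373 and 376 at 1 h, then 399 and 358 at 3 h, with every library after surgery above naive and a rise of 0.74 ± 0.13 (adjusted p = 0.0022). Pgam1 was at 198 and 219.7 CPM in the naive libraries, then 312 and 355 at 1 h, then 349 and 277 at 3 h and rose by 0.77 ± 0.16. Pkm, at 575 and 563 CPM in the naive libraries, then 757 and 929 at 1 h, then 790.5 and 753 at 3 h, rose by 0.64 ± 0.14 at 1 h and 0.64 ± 0.13 at 3 h, and its 1 h and 3 h values overlapped. The 1 h call of Pkm was lost without the Lyz2-cre naive or Lyz2-cre 1 h library.

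Pgk1 was at 165 and 200 CPM in the naive libraries, then 229.6 and 279 at 1 h, then 270.3 and 216 at 3 h, a rise of 0.60 ± 0.17. As for Pkm, the libraries after surgery lay above naive without separating by time. Without the fl/fl 3 h library Pgk1, Pgam1 and Pkm each lost the 3 h call, and Pgk1 also without the fl/fl naive library. Gpi1 was at 356 and 368 CPM in the naive libraries, then 522 and 525 at 1 h, then 377 and 386 at 3 h and rose at 1 h by 0.60 ± 0.13, lost without either naive library. The mTORC1 inhibitor Ddit4 was at 22.4 and 43.1 CPM in the naive libraries, then 95.2 and 96.4 at 1 h, then 70.0 and 53.9 at 3 h, a rise of 1.5 ± 0.26 (adjusted p = 0.021) at 1 h and of 0.99 ± 0.25 (adjusted p = 0.016) at 3 h, the latter lost without the fl/fl naive or fl/fl 3 h library. Ndrg1, at 42.4 and 30.3 CPM in the naive libraries, then 17.8 and 31.5 at 1 h, then 51.2 and 45.7 at 3 h, rose from 1 h to 3 h by 1.01 ± 0.25, where both 3 h libraries were highest, a call lost without the fl/fl 1 h library. Bnip3l, at 257 and 275 CPM in the naive libraries, then 263 and 313 at 1 h, then 172 and 190.4 at 3 h, fell by 0.54 on the log2 scale over the same step, to below every earlier library; this call was lost without the Lyz2-cre 1 h or either 3 h library.

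This class also changed its makeup. Classical cells, in the cluster led by Fn1, were 33.7% to 47.9% of it in the naive and 1 h libraries and 80.1% and 82.5% at 3 h, and the rest lay in a patrolling cluster led by Ace. All 12 neutrophil markers were detected at 3 h, summing to 3442 and 1813 CPM against 204.6 and 256.1 CPM naive, and microglial markers summed to 602 and 572.5 CPM against 3292 and 2119 CPM; their part in the changes was not tested. In the classical cluster alone the 3 h changes were 2.35 for Hif1a, 2.60 for Slc2a1, 4.15 for Slc16a1 and 2.04 for Pfkfb3, all called. Ddit4 (2.39), Ldha (0.80), Pfkp (0.78) and Pgam1 (0.74) were also called there. Pgk1 (0.49), Pkm (0.38), Vegfa (2.14) and Pfkfb4 (-0.70) were not. Hk3 (-0.95) and Bnip3l (-0.54), not called over the class, were called lower. Slc16a3 (1.21), Ankrd37 (2.14) and P4ha1 (0.82), likewise not called over the class, were called higher. In the patrolling cluster alone Slc2a1 (2.03), Slc2a3 (5.50), Pfkfb3 (1.64) and Ddit4 (1.96) were called, and Hif1a was not (0.81, adjusted p = 0.081). None of the enzymes called over the class was called there: Ldha gave 0.37, Pfkp 0.35, Pkm 0.21, Pgk1 0.17 and Pgam1 0.02. Slc2a3 was sparse, with 106 UMIs over the 6 libraries of the class and levels of 0 to 15.1 CPM. The difference between the clusters was not tested. Leaving out single libraries gave 8 calls (without fl/fl 3 h) to 19 (without either 1 h library) at 3 h, and 2 (without Lyz2-cre naive) to 12 (without fl/fl 1 h) at 1 h.

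Lymphocyte-like cells, which pool T-cell-like, B-cell-like and natural-killer-cell-like clusters, had 9 members called at each time against naive. At 1 h 7 of 29 tested members had risen and 2 had fallen, against 7.45% and 5.92% of all 9574 genes. At 3 h 8 had risen and 1 had fallen, against 8.17% and 6.76%. From 1 h to 3 h 2 rose and 1 fell, against 5.91% and 5.87%. The median change at 3 h was 0.25, beside -0.01 over all genes. Hk3, Pfkm, Aldoc, Egln3 and Adm had too few UMIs to be tested.

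Hif1a was at 90.2 and 73.5 CPM in the naive libraries, then 110.4 and 79.6 at 1 h, then 222 and 161 at 3 h. Both 3 h libraries were highest, and the rise was 1.34 ± 0.13 (adjusted p = 3.3e-06). Slc2a1, at 15.9 and 19.8 CPM in the naive libraries, then 27.6 and 27.5 at 1 h, then 31.4 and 32.6 at 3 h, was lowest in the naive libraries. It rose by 0.78 ± 0.22 at 1 h and 0.97 ± 0.22 (adjusted p = 0.0056) at 3 h. Slc2a3, which lymphocytes are known to use, was at 36.2 and 33.1 CPM in the naive libraries, then 20.2 and 18.5 at 1 h, then 18.8 and 20.7 at 3 h. It was highest in the naive libraries and fell by 0.70 on the log2 scale at 3 h (adjusted p = 0.04). This call was lost when any naive or 3 h library was left out. In T-cell-like cells alone its change was -0.38 and not called. Its median level was 13.9 CPM in B-cell-like cells, beside 24.6 in T-cell-like and 28.9 in natural-killer-cell-like cells. B-cell-like cells numbered 59 and 101 naive and 122 and 145 at 3 h, T-cell-like cells 491 and 206, then 150 and 102. The part of this mix was not tested. Pfkfb3, at 13.7 and 9.90 CPM in the naive libraries, then 8.75 and 15.5 at 1 h, then 18.8 and 26.7 at 3 h, rose by 1.01 ± 0.31 (adjusted p = 0.034), and its naive and 1 h values overlapped.

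Of the enzymes, Ldha was at 367 and 324 CPM in the naive libraries, then 567 and 413 at 1 h, then 463 and 440.5 at 3 h, with changes of 0.63 ± 0.12 at 1 h and 0.51 ± 0.12 at 3 h. Its libraries after surgery all lay above naive. Gapdh was at 936 and 781 CPM in the naive libraries, then 1051 and 993 at 1 h, then 1058 and 776 at 3 h and rose at 1 h by 0.41 ± 0.11, where both 1 h libraries lay above naive and within the 3 h range. Gpi1 was at 282 and 232 CPM in the naive libraries, then 369.5 and 358 at 1 h, then 289.7 and 195 at 3 h. It was highest at 1 h, a rise of 0.66 ± 0.13, and fell by 0.63 on the log2 scale from 1 h to 3 h. The hexokinase Hk1 was at 52.3 and 44.9 CPM in the naive libraries, then 26.2 and 26.0 at 1 h, then 38.7 and 27.3 at 3 h and both 1 h libraries were lowest, a change of -0.73 ± 0.19. All 4 of the 1 h calls of enzymes were lost without either naive library, those of Gapdh and Gpi1 also without the Lyz2-cre 1 h library and that of Hk1 without the fl/fl 1 h library. The step of Gpi1 to 3 h was lost without either naive, the Lyz2-cre 1 h or the Lyz2-cre 3 h library.

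Of the HIF targets, Vegfa was at 1.64 and 3.05 CPM in the naive libraries, then 10.1 and 11.0 at 1 h, then 15.1 and 14.7 at 3 h, a change of 2.81 ± 0.41 (adjusted p = 0.00019). All libraries after surgery lay above naive, and most of these UMIs came from natural-killer-cell-like cells (71.5 and 49.6 CPM at 3 h, against 0 to 1.11 CPM in T-cell-like cells). P4ha1 was at 25.8 and 26.3 CPM in the naive libraries, then 27.6 and 22.5 at 1 h, then 89.5 and 41.3 at 3 h, with both 3 h libraries highest and a rise of 1.44 ± 0.24 (adjusted p = 0.0024). Ddit4 was at 28.5 and 30.8 CPM in the naive libraries, then 84.1 and 61.1 at 1 h, then 73.8 and 64.0 at 3 h and rose by 1.34 ± 0.17 (adjusted p = 6.1e-05). Ndrg1 was at 3.29 and 1.52 CPM in the naive libraries, then 10.8 and 1.5 at 1 h, then 15.1 and 5.33 at 3 h, a rise of 2.21 ± 0.49 with values that overlapped between times. Bnip3l, at 154 and 146 CPM in the naive libraries, then 196 and 162 at 1 h, then 184 and 161 at 3 h, rose at 1 h by 0.40 ± 0.12, lost when any naive or 1 h library was left out. The 1 h call of Slc2a1 was likewise lost without any of these 4 libraries. At 3 h Hif1a and Ddit4 stayed called whichever library was left out. Vegfa lost its call without the fl/fl naive library, P4ha1 and Ndrg1 without the fl/fl naive or fl/fl 3 h library, Slc2a1 without these or the Lyz2-cre naive library, and Ldha and Pfkfb3 without either naive or the Lyz2-cre 3 h library. Without the fl/fl naive library 2 calls at 3 h and 1 at 1 h were made, among all members tested.

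The lymphocyte mix differed between libraries. T-cell markers summed to 4415 and 2357 CPM naive and 2101 and 1537 CPM at 3 h, B-cell markers to 1093 and 6474 CPM and 2728 and 3165 CPM. Erythroid markers were at 9090 CPM in the Lyz2-cre 1 h library and at 0 to 5.21 CPM in the others, and neutrophil markers at 1931 CPM in the fl/fl 1 h library. Their part in the results was not tested. In T-cell-like cells alone, at 3 h, Hif1a (1.77), P4ha1 (1.84), Slc16a3 (1.74), Ldha (1.00), Ddit4 (1.26) and Tpi1 (0.89) were called, and Slc2a1 was not (1.05, adjusted p = 0.059).

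**Figure D3:**
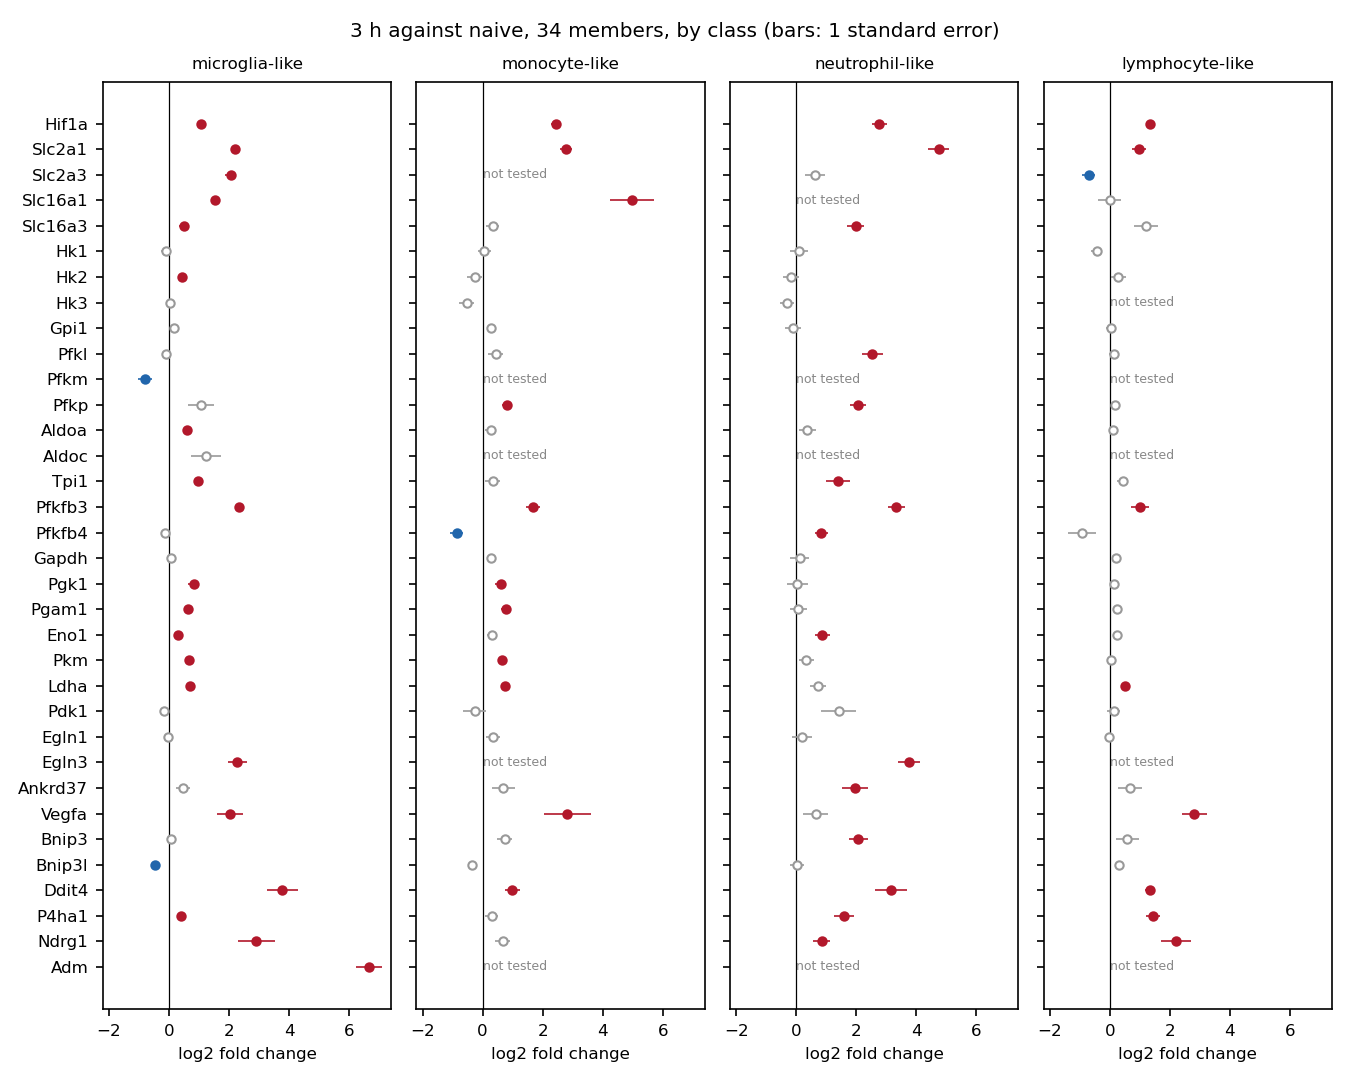
Log2 fold change of each member at 3 h against naive in the 4 classes; bars are 1 standard error, filled symbols are called (red higher, blue lower) and open symbols are not. Slc2a1 and Hif1a lie to the right of 0 in all 4 classes, with the largest values in neutrophil-like cells (4.74 and 2.77).

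Whether a change at 3 h differed between classes was tested in 1 model over the 24 sums with the library as a block, for 31 members. The change differed from that of microglia-like cells for 5 members in monocyte-like cells (16.2% of all 11773 genes differed), for 15 in neutrophil-like cells (19.3%) and for 8 in lymphocyte-like cells (7.8%). In neutrophil-like cells the rise of Slc2a1 was larger by 2.78 ± 0.31 (adjusted p = 6e-08), of Hif1a by 1.93 ± 0.24 (adjusted p = 2.9e-07), of Pfkl by 2.83 ± 0.30 (adjusted p = 1.8e-08), of Bnip3 by 2.18 ± 0.26 (adjusted p = 1.4e-07) and of Slc16a3 by 1.69 ± 0.23 (adjusted p = 1.3e-06). Of these, only the own change of Bnip3 was no longer called without the cluster rich in Ltf (1.01). Most 3 h cells of this class lay in a cluster with 0 and 2 naive cells, and its part in the differences was not tested. Slc2a3 and Ndrg1 did not fall in neutrophil-like cells (0.63, not called, and 0.86) but changed less than in microglia-like cells (2.06 and 2.91). Their differences were -1.26 ± 0.37 (adjusted p = 0.022) and -1.79 ± 0.63 (adjusted p = 0.048). In monocyte-like cells Slc16a1 rose more by 3.76 ± 0.98 (adjusted p = 0.0079) and Hif1a by 1.5 ± 0.23 (adjusted p = 2.3e-05). Ddit4 rose less there, with a difference of -2.61 ± 0.43 (adjusted p = 0.0018). In the classical and patrolling clusters alone Ddit4 rose by 2.39 and 1.96, both more than the 0.99 of the class. Hif1a changed by 2.35 and by 0.81 in them, the latter not called. The part of the changed mix of clusters in these differences was not tested. In lymphocyte-like cells Slc2a3 differed by -2.75 ± 0.44 (adjusted p = 0.00072) and Ddit4 by -2.50 ± 0.38 (adjusted p = 0.0015). Pfkfb3 differed by -1.26 ± 0.29 (adjusted p = 0.0045) and Slc2a1 by -1.17 ± 0.30 (adjusted p = 0.011). P4ha1 differed by 1.08 ± 0.22 (adjusted p = 0.0011) in the opposite direction. In T-cell-like cells alone the change of Slc2a3 was -0.38 and not called. Without the fl/fl naive library 2, 8 and 0 of these differences were called, and without the Lyz2-cre naive library 1, 7 and 4.

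**Figure D4:**
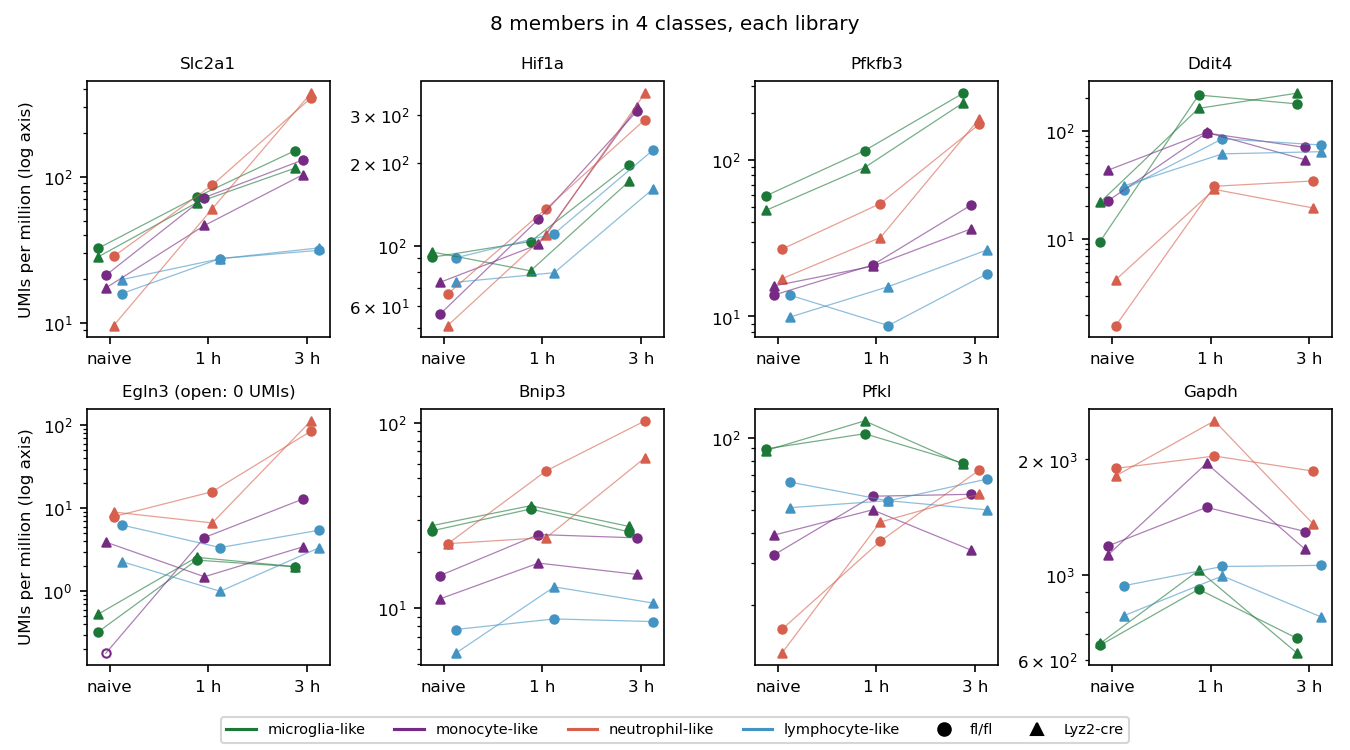
Levels of 8 members by time in the 4 classes, on log axes of CPM, with 1 point per library and lines that join libraries of 1 genotype, which are different animals; the open symbol is a library with 0 UMIs, drawn below the smallest level. Slc2a1 in neutrophil-like cells goes from 9.62 and 28.6 CPM naive to 346 and 373 CPM at 3 h.

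The transport and enzyme genes and the HIF feedback and target genes can be set beside each other in each class. At 3 h 8 of 20 tested transport and enzyme genes had risen and 1 had fallen in monocyte-like cells (median 0.33), 8 had risen and none had fallen in neutrophil-like cells (median 0.68), and 3 had risen and 1 had fallen in lymphocyte-like cells (median 0.16). Feedback and target genes had risen in 2 of 8 (median 0.68), 6 of 9 (median 1.59) and 4 of 8 (median 1.01), and none of them had fallen. Over all genes 14.2%, 18% and 8.17% had risen in these classes, and the lymphocyte-like share of transport and enzyme genes and the monocyte-like share of target genes lie closest to that. The feedback hydroxylase Egln3 rose in microglia-like and neutrophil-like cells. In monocyte-like and lymphocyte-like cells it had too few UMIs to be tested. Its level there reached 12.94 and 6.303 CPM, against at most 2.569 CPM in microglia-like cells. The larger median of the feedback and target group in each of the 4 classes at 3 h is a description, since the groups of genes were not tested against each other. It did not hold for the feedback genes alone in microglia-like cells, where 1 of 3 had risen (median 0.46, against 0.60 for transport and enzyme genes). In neutrophil-like cells 2 of 3 feedback genes had risen (median 1.96). Of the 2 tested in monocyte-like and in lymphocyte-like cells none was called (medians 0.515 and 0.33).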

How the data were processed

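The deposited matrices hold raw UMI counts per gene and barcode, which the authors had made with Cell Ranger 3.0.2 against mm10, per the submitters' processing notes. Library totals were 35479437 to 48478866 UMIs. A barcode needed 300 genes and no more than 10% mitochondrial UMIs (50634 of 51005 passed). The highest Scrublet scores, 0.8% per 1000 barcodes, were then removed as doublets (3531), because the automatic threshold marked only 433, 419 of them in 1 library. Log-normalised cells were clustered (scanpy 1.11.5, 2000 variable genes, 30 components, 15 neighbours, resolution 1.0), and each of the 22 clusters was named from marker lists, among classes with at least 3 detected markers, a limit set after the clusters were seen.

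For each library and class the raw counts were added up and tested with edgeR 4.0.16 (R 4.3.3; robust quasi-likelihood, TMM factors, filterByExpr by time, genotype and time as terms, Benjamini-Hochberg over all genes, threshold 0.05). Class-by-time differences came from 24 sums with library as a block and 6 residual degrees of freedom. Levels carry exact 95% Poisson intervals, which cover counting error only. Alternatives were DESeq2 1.42.0, other size factors, no filter on low counts, no genotype term, stricter cells, doublets kept, clustering without the members, class subsets and each library left out. The method was tested on simulated data. Members and lists were chosen with earlier results of these data known. Library values are given for every member called in a time comparison of a class. Of each further list the 4 genes of largest change among those called at 3 h are named.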

Additional observations from a re-analysis of the deposited data

Results flagged for a closer look

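For 28 gene and class pairs the change at 3 h against naive differed from that of microglia-like cells. The test was edgeR's for the class-by-time term, adjusted over all 11773 genes. Of 31 members tested, 5 differed in monocyte-like, 15 in neutrophil-like and 8 in lymphocyte-like cells. Over all genes 16.2%, 19.3% and 7.8% differed, and the monocyte-like count lies near its share. Values are log2 differences, with a positive sign where the other class rose more or fell less.

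In monocyte-like cells the lactate carrier Slc16a1 differed by 3.76 and Hif1a by 1.5, while Ddit4 differed by -2.61, Ndrg1 by -2.06 and Pfkfb4 by -0.65. The rise of Ddit4 was 0.99 over the class, but 2.39 in the classical and 1.96 in the patrolling cluster alone. Hif1a was not called in the patrolling cluster alone (0.81). The part of the changed mix of clusters was not tested.

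In neutrophil-like cells the transporters Slc2a1 and Slc16a3 differed by 2.78 and 1.69, and Slc2a3 by -1.26. Hif1a differed by 1.93. Of the enzymes and regulators Pfkl differed by 2.83, Pdk1 by 1.79, Pfkfb3 by 1.22, Pfkfb4 by 1.14 and Eno1 by 0.77. Of the feedback and target genes Bnip3 differed by 2.18, Egln3 by 1.8, Ankrd37 by 1.67, P4ha1 by 1.43, Bnip3l by 0.68 and Ndrg1 by -1.79. Pdk1 and Bnip3l were not called within neutrophil-like cells themselves. Without the cluster rich in Ltf, Bnip3, P4ha1, Ankrd37, Pfkfb4 and Ndrg1 were not called there either.

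In lymphocyte-like cells Slc2a3 differed by -2.75, Ddit4 by -2.5, Egln3 by -2.28, Slc16a1 by -1.55, Pfkfb3 by -1.26 and Slc2a1 by -1.17. In T-cell-like cells alone the change of Slc2a3 was -0.38 and not called. Egln3 had too few UMIs to be tested in lymphocyte-like cells alone and entered this model through its counts in other classes. Its difference therefore says little about lymphocyte-like cells. P4ha1 differed by 1.08 and Bnip3l by 0.82 there. Bnip3l had fallen in microglia-like cells (-0.45) and its own change in lymphocyte-like cells was 0.32, which was not called.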

How the results depend on the processing

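Of 260 recomputed counts of called members, 182 stayed within 1.5 times the reported count, all 16 with DESeq2's size factors in edgeR among them. No paired analysis was possible because each group has 1 library and all carry replicate number 1. Without the microglia-like clusters led by Gdf15 and Csmd3, whose highest marker score was for another class, the change of Hk3 at 3 h turned from 0.03, not called, to -0.25, called lower (adjusted p = 0.027, edgeR).

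Monocyte-like calls at 1 h were 4 as reported, 7 with DESeq2, 12 without a filter, 9 without the genotype term, 7 in stricter cells, and 1 in the classical or patrolling cluster alone. From 1 h to 3 h 7 became 3 with DESeq2, 11 without a filter and 2 in the patrolling cluster, where 12 calls at 3 h became 4. Lymphocyte-like calls at 1 h went from 9 to 4 with DESeq2, 3 without the genotype term and 3 in T-cell-like cells; at 3 h from 9 to 3 with DESeq2 and 4 without the genotype term; and from 1 h to 3 h from 3 to 1 without that term. Genotype calls in lymphocyte-like cells were 2, and 0 with DESeq2, without the time term, in stricter cells and in T-cell-like cells, 5 without a filter and 1 with doublets kept. In microglia-like cells they were 0, and 1 with DESeq2, 3 without a filter, 1 with doublets kept and 1 with members left out of clustering. In monocyte-like cells they were 0, and 2 without a filter and 1 in the patrolling cluster; in neutrophil-like cells 0, and 1 without a filter. Differences from microglia-like cells went from 5 to 9 in monocyte-like cells with the 2 classes compared alone and to 3 with the classical cluster, from 15 to 8 in neutrophil-like cells and from 8 to 2 in lymphocyte-like cells with stricter cells. The cause was not tested.

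Leaving out each library in turn gave 9 to 21, 12 to 24, 11 to 21 and 0 to 2 calls in microglia-like cells (1 h and 3 h against naive, 3 h against 1 h, genotype), 2 to 12, 8 to 19, 6 to 11 and 0 to 2 in monocyte-like, 1 to 8, 10 to 19, 8 to 14 and 0 to 2 in neutrophil-like, and 1 to 10, 2 to 12, 2 to 6 and 0 to 4 in lymphocyte-like cells. Differences between classes gave 1 to 9, 7 to 18 and 0 to 11. Where a time was left with 1 library, that library was assumed to vary like the others. Members with few UMIs, such as Adm, Egln3, Vegfa and Ndrg1, are limited by counting error.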

Other observations

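Cell classes too small for the comparisons showed some of the same members at different levels over time, given here as values with no test. In conventional-dendritic-cell-like cells (49 to 147 per library) Slc2a1 was at 24.9 and 27.0 CPM naive, 112 and 85.0 at 1 h, with 98.7 and 99.0 at 3 h, so the naive libraries stood below all later ones. Vegfa in these cells was at 2.57 and 0 CPM naive, 64.9 and 65.5 at 1 h, with 82.9 and 28.1 at 3 h. Their Ldha was at 211 and 206 CPM naive and at 366.5 to 429 CPM in the 4 later libraries, while Pfkfb3 went from 61.8 and 47.7 CPM to 35.8 and 37.1 CPM at 3 h.

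In border-associated-macrophage-like cells (31 to 109 per library) Slc2a1 was at 24.9 and 14 CPM naive and highest at 1 h (66.9 and 93.4 CPM), and Gapdh was at 774 and 716 CPM naive, 1587 and 1807 at 1 h, with 507 and 832 at 3 h.

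Within the lymphocyte-like class Vegfa was mostly found in natural-killer-cell-like cells, at 8.57 and 6.03 CPM naive, 63.2 and 41.8 at 1 h, with 71.5 and 49.6 at 3 h, against 0 to 1.11 CPM in T-cell-like and 0 to 3.72 CPM in B-cell-like cells. Hif1a at 3 h was at 333 and 278 CPM in T-cell-like cells, 113 and 68.5 CPM in natural-killer-cell-like cells and 74.1 and 97.1 CPM in B-cell-like cells.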
